A study of Sus scrofa with 12 samples.

Results

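The genes described here are 9 genes of muscle glycogen metabolism and of its energy sensor: *PYGM*, *GYS1*, *GBE1*, *PHKA1*, *PHKG1*, *UGP2*, *PRKAG3*, *PRKAA2* and *PPP1R3C*, out of 28195 genes annotated on the chromosomes of the pig assembly Sscrofa11.1. They were chosen by name for their role, with earlier results of these data known. RNA-seq had been carried out on the loin muscle (*Longissimus dorsi*) of 12 castrated male pigs from 1 closed Iberian purebred line, all fattened outdoors on acorns and grass, with 1 library per animal. The 6 animals of the Tough group had high estimated breeding values for shear force (1.76 to 2.4) and loins that needed 7.32 to 10.63 kg/cm2 to be cut, while the 6 animals of the Tender group had low breeding values (-1.09 to -0.98) and shear forces of 2.18 to 3.43 kg/cm2. No treatment was applied, and close relatives had been avoided when the animals were chosen. The animals had been slaughtered over several years, and the year of each animal is not given in the labels, so a year effect and the group cannot be told apart.

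Glycogen is the glucose store of the muscle fibre. UDP-glucose, made by the enzyme encoded by *UGP2*, is added to the growing chain by glycogen synthase (*GYS1*) and the chain is branched by *GBE1*, while glycogen phosphorylase (*PYGM*) takes glucose units off the chain after phosphorylase kinase, whose regulatory alpha and catalytic gamma subunits are encoded by *PHKA1* and *PHKG1* in muscle, has switched it on. *PPP1R3C* brings protein phosphatase 1 to glycogen, which favours synthesis, and AMP-activated protein kinase (AMPK) senses the energy state of the cell through a gamma subunit. *PRKAG3* encodes the gamma subunit typical of white muscle and *PRKAA2* one of the catalytic alpha subunits. In pigs, mutations of *PRKAG3* are known to change the glycogen stored in muscle and, through the lactate made after death, the pH and water-holding of the meat.

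The deposited files list assembled transcripts with their FPKM (fragments per kilobase of transcript, scaled to the mapped fragments of the library). A transcript was given to a gene when at least 50% of its exonic bases fell in exons of the gene on the same strand, and the FPKM of these transcripts was summed and rescaled to the exon length of the gene ("assigned transcripts"). A second measure, "per exon base", averaged the FPKM over every annotated exon base of the gene, also from transcripts that lay mostly elsewhere. It was among the alternatives from the start, and it was placed beside the first for *PRKAG3*, *GYS1* and *PHKG1* once their values had been seen, because their assembled transcripts ran past the annotated ends. Under the first measure *PRKAG3* was listed at 0 in 7 of the 12 libraries (3 Tough and 4 Tender), *PHKG1* in 2 and *GYS1* in 1, although transcripts with their exons had been assembled in every library.

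The reference sequences on which the splicing results turn are printed first. In *PRKAG3*, on the minus strand of chromosome 15 (chr15:120859486-120866308, 13 exons), they show an intron that is not annotated and starts 116 bases after the stop codon, the coding bases of the last annotated exon, and an annotated intron that was kept in some transcripts. In *PHKA1* and *UGP2* they show where 2 forms of each coding sequence part. All are written 5′ to 3′ on the strand of the gene.
PRKAG3 donor of the unannotated intron (chr15:120859835-120859858, the capitals mark the first bases of the intron): gctcttgttcagGTaggctccgcc
PRKAG3 acceptor of the unannotated intron (chr15:120859270-120859293, the capitals mark the last bases of the intron): tttccctcacAGgcttctccaggc
PRKAG3 donor used when the last coding exon is skipped (chr15:120860423-120860446, the capitals mark the first bases of the intron): gtccgggaacagGTaccccagccc
PRKAG3 coding bases of the last annotated exon (chr15:120859963-120860079, the capitals mark the stop codon): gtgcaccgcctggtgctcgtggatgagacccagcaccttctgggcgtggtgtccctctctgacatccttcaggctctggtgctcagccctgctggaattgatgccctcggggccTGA
PRKAG3 intron kept in some transcripts (chr15:120862091-120862222, the capitals mark the first stop codon in frame): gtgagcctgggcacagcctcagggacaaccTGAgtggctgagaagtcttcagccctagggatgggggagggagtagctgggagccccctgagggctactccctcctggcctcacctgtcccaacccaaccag
PHKA1 alternative donors (chrX:58478353-58478385, the capitals mark the 9 bases found only in the longer form): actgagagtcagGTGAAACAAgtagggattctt
UGP2 coding bases of the first exon of the longer form (chr3:78030437-78030455, the capitals mark its start codon): ATGtcgagatttgtacaag
UGP2 first bases of the second exon (chr3:78014759-78014790, the capitals mark the start codon of the shorter form): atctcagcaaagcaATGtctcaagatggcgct

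The 9 genes differed widely in level and little between the groups. Per exon base, *PYGM* had a median of 2531 FPKM over the 12 libraries, and its lowest library (1852) lay above the highest of *GYS1* (120.6). After *PYGM* the medians ran from *GYS1* (88.3 FPKM) through *UGP2* (73.7), *PHKA1* (73.5), *PPP1R3C* (45.1), *PHKG1* (34.3), *PRKAA2* (16.2) and *PRKAG3* (13.8) to *GBE1* (4.25). From *GYS1* down, the ranges of neighbours overlapped over the libraries: *GYS1* exceeded *UGP2* in 9 of 12 libraries, *UGP2* exceeded *PHKA1* in only 5, *PRKAA2* exceeded *PRKAG3* in 8, and *PRKAG3* exceeded *GBE1* in 11. The branching enzyme gene *GBE1* was the lowest of the 9 and also the most variable, with a coefficient of variation of 45.3% over the libraries against 19.2% for *GYS1* and 23.0% for *PYGM*. The files hold no read counts. The coverage that the assembler estimated, summed over the transcripts of a gene, was 22.2 to 54.6 reads per base for *GBE1*, 53.6 to 250.4 for *PRKAG3* and 15208 to 47546 for *PYGM*, so the least precise values are those of *GBE1*.

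**Figure D1:**
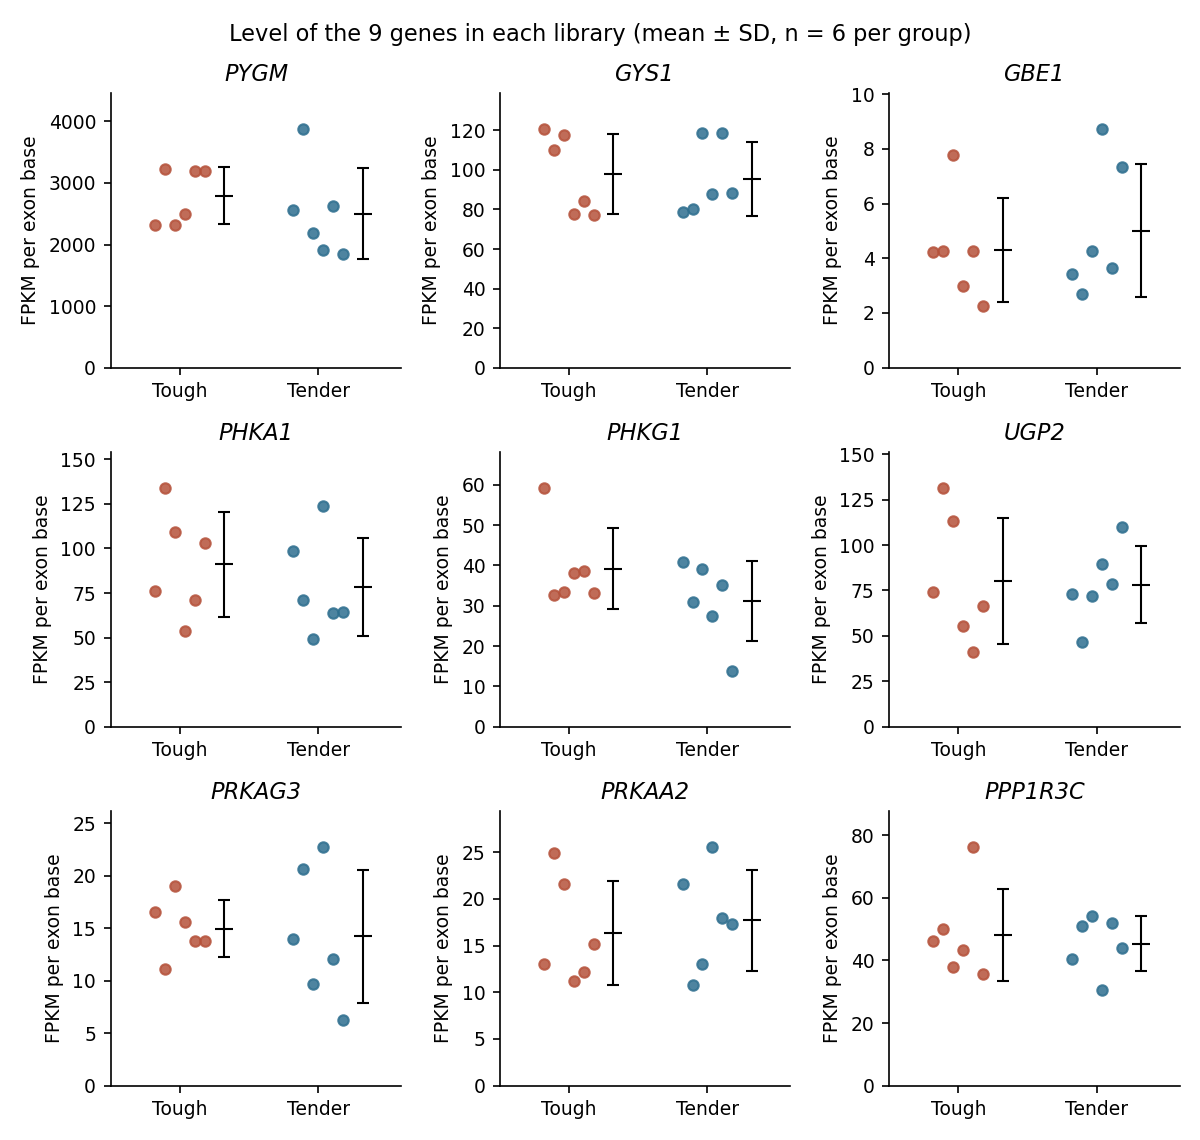
Level of each of the 9 genes (FPKM per exon base, vertical axis starting at 0) in the 6 Tough and the 6 Tender libraries. Points are libraries in the order of their numbers and the bars beside them give the mean and SD. The groups overlap in every panel. The highest *PHKG1* library is Tough 1 (59.1), the highest *PPP1R3C* library is Tough 5 (76.1), and the lowest *PHKG1* library is Tender 6 (13.8).

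None of the 9 genes passed the thresholds between the Tough and Tender groups (limma p up to 0.05, p after Benjamini-Hochberg adjustment up to 0.10, and 1.5-fold or more), and 0 of the 9017 genes tested did (0%). At an unadjusted limma p of at most 0.05, 223 of all genes tested (2.47%) were found, 64 higher in the Tough group (0.71%) and 159 higher in the Tender group (1.76%), and none of the 9. The mean log2 value was higher in the Tough group for 6 of the 9, beside 39.7% of all genes tested, with no test of that count. Groups that did not overlap were found in 9 of 9017 genes (0.0998%) and in none of the 9. Per exon base 0 of 9274 genes passed (0%) and 265 (2.86%) had an unadjusted p of at most 0.05, of which 67 (0.722%) were higher in the Tough and 198 (2.14%) in the Tender group, again with none of the 9 among them. Groups did not overlap in 8 genes (0.0863%), none of them among the 9, and 6 of the 9 had the higher mean log2 value in the Tough group, beside 38.7%. The estimates in log2 fold change below are Tough minus Tender with the SE of limma on log2(FPKM + 0.5), a scale that understates the change of low genes, and the adjusted p of each was 1.00. P-values measure the spread between animals, 1 library each. Unless per exon base is named, the values of single genes and their intervals below are those of assigned transcripts.

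*PYGM*, the phosphorylase that releases glucose from glycogen (chr2:7409330-7421256, plus strand), ran from 2498 over a median of 3079 to 3830 FPKM in the Tough group. In the Tender group it ran from 1913 over 2502 to 4360. The range of the Tough animals lay inside that of the Tender animals, since Tender 2 was the highest of all 12 libraries and Tender 4 the lowest (per exon base the lowest was Tender 6, at 1852 FPKM). The means were 3090.4 ± 479.5 (SD, n = 6) and 2707 ± 902 (SD, n = 6) FPKM, a log2 fold change of 0.24 ± 0.20, with an exact two-sided permutation p of 0.374. This value rests on Tender 2: without that library the Tender mean was 2376 FPKM, the ratio of means 1.30 and the exact permutation p 0.0346, unadjusted for the 9 genes and 12 left-out libraries. Per exon base the p without Tender 2 was 0.0584 (exact permutation test).

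*GYS1*, the synthase that builds the chain (chr6:54234600-54250211, minus strand), ran per exon base from 77.2 over a median of 97.2 to 120.6 FPKM in the Tough group and from 78.6 over 88.3 to 118.9 in the Tender group. In both groups the libraries fell into a set between 77.2 and 88.5 FPKM and a set between 109.9 and 120.6. The difference of the means, 97.9 ± 20.3 against 95.4 ± 18.5 FPKM (SD, n = 6 each), was smaller than the spread between animals, with a log2 fold change of 0.03 ± 0.17 and an exact permutation p of 0.933. Under assigned transcripts the log2 fold change was 1.41 ± 1.30, and the value of Tender 2, listed at 0, decided it: without that library it was -0.013. The *GYS1* transcript of Tender 2 had 49.6% of its bases in the gene and those of the other 11 libraries 51.4 to 51.7%.

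*GBE1*, which adds the branches (chr13:173634401-173909646, plus strand), ran from 2.49 over 4.52 to 10.6 FPKM in the Tough group and from 2.69 over 4.41 to 11.7 in the Tender group. Single animals stood out in both: Tough 3 (10.6), Tender 4 (11.7) and Tender 6 (8.16) held the 3 highest levels and the other 9 libraries were at 5.75 or lower. The means were 5.15 ± 2.93 and 5.87 ± 3.42 FPKM (SD, n = 6 each), with a log2 fold change of -0.15 ± 0.37 and an exact permutation p of 0.719.

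*UGP2*, which makes the UDP-glucose that feeds synthesis (chr3:77975450-78032471, minus strand), ran from 42.2 over 71.1 to 135.0 FPKM in the Tough group and from 47.0 over 77.8 to 112.4 in the Tender group. The Tough animals held the 2 highest values, Tough 2 and Tough 3, and the lowest, Tough 5. The log2 fold change was -0.04 ± 0.29 with an exact permutation p of 0.913. Its sign changed under both other scalings (0.011 with median-of-ratios and 0.094 with quantile normalization), so no direction can be given.

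*PHKA1*, the regulatory alpha subunit of phosphorylase kinase (chrX:58456097-58583216, minus strand), ran from 53.9 over 90.3 to 138.6 FPKM in the Tough group. In the Tender group it ran from 49.2 over 68.01 to 125.3, and 5 of the 6 Tough animals lay above the median of the Tender animals. The difference (92.6 ± 30.7 against 79.1 ± 28.1 FPKM, SD, n = 6 each) was smaller than the SD of either group, with a log2 fold change of 0.23 ± 0.27 and an exact permutation p of 0.431. The log2 fold change was 0.099 without Tough 2 and 0.37 without Tender 4.

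*PHKG1*, the catalytic gamma subunit of the same kinase (chr3:16822042-16831054, plus strand), ran per exon base from 32.6 over 35.8 to 59.1 FPKM in the Tough group and from 13.8 over 33.0 to 40.9 in the Tender group. The highest library was Tough 1 and the lowest Tender 6, and 5 of the 6 Tough animals lay above the Tender median. The means were 39.2 ± 10.1 and 31.2 ± 9.92 FPKM (SD, n = 6 each). This was the difference with the smallest p of the 9 per exon base, a log2 fold change of 0.37 ± 0.25 with an unadjusted limma p of 0.156, and the exact permutation p was 0.238. Under assigned transcripts it was 0.20 ± 1.41, with Tough 2 and Tender 6 listed at 0.

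*PPP1R3C*, which targets protein phosphatase 1 to glycogen (chr14:103273401-103278757, minus strand), ran from 35.6 over 44.7 to 76.1 FPKM in the Tough group and from 30.7 over 47.5 to 54.2 in the Tender group. Tough 5 alone lay above all Tender animals. The log2 fold change was 0.06 ± 0.20 with an exact permutation p of 0.742.

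*PRKAA2*, a catalytic subunit of AMPK (chr6:155683392-155754283, minus strand), ran from 14.0 over 17.1 to 25.1 FPKM in the Tough group and from 10.9 over 19.3 to 29.5 in the Tender group. The Tender animals spanned the whole range of the Tough ones. The log2 fold change was -0.02 ± 0.25 with an exact permutation p of 0.823, and its sign changed with median-of-ratios scaling (0.024) and quantile normalization (0.048).

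*PRKAG3*, the gamma subunit of white muscle AMPK, ran per exon base from 11.11 over 14.7 to 19.1 FPKM in the Tough group and from 6.30 over 13.03 to 22.7 in the Tender group. Tender 4 (22.7) and Tender 2 (20.6) lay above all Tough animals, and Tender 6 (6.30) and Tender 3 (9.69) below all of them. The means were 14.97 ± 2.74 and 14.2 ± 6.35 FPKM (SD, n = 6 each), a log2 fold change of 0.17 ± 0.27 with an exact permutation p of 0.801. Under assigned transcripts, where 7 libraries were listed at 0, the fitted difference was 0.56 ± 1.61, and its 95% interval ran from -2.93 to 4.05.

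**Figure D2:**
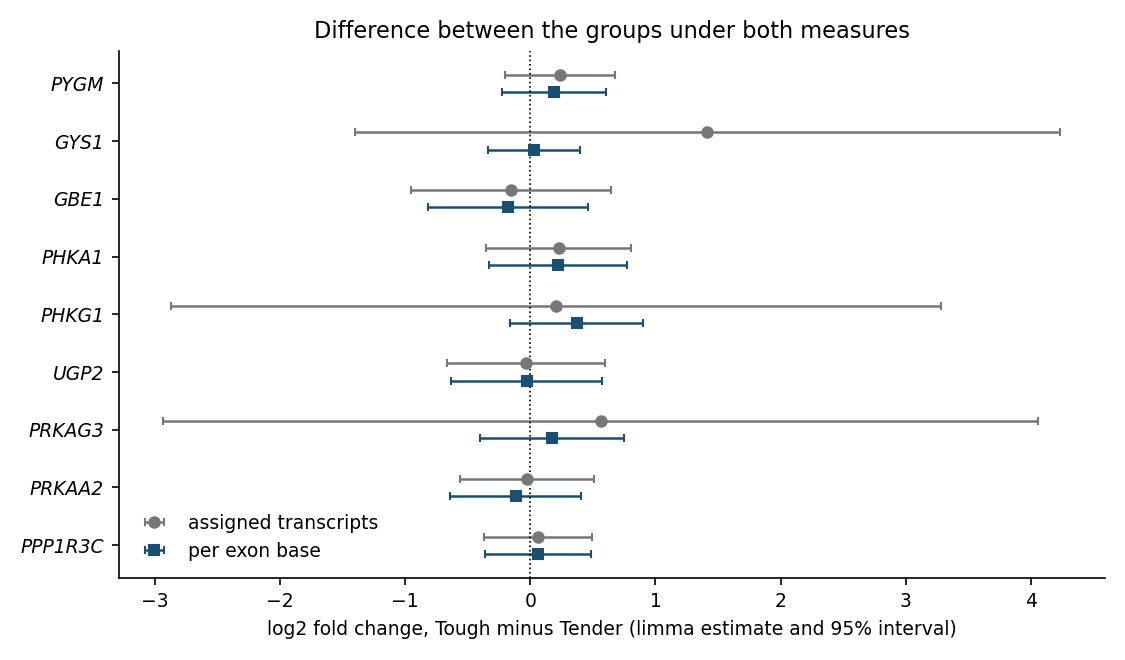
Log2 fold change, Tough minus Tender, of the 9 genes (points) with the 95% interval of limma (bars), under assigned transcripts (grey) and per exon base (blue). Each interval crosses 0. The grey intervals of *GYS1*, *PHKG1* and *PRKAG3* are wide because libraries listed at 0 enter them, and per exon base they narrow to -0.34 to 0.40, -0.16 to 0.90 and -0.40 to 0.75.

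The 95% intervals give the differences that these animals leave possible. Those of *GYS1* per exon base (-0.34 to 0.40) and *PPP1R3C* (-0.37 to 0.49) lay inside the change of 0.585 on the log2 scale that a fold change of 1.5 needs. Those of *PYGM* (-0.21 to 0.68), *PHKA1* (-0.35 to 0.81), *UGP2* (-0.67 to 0.60) and *GBE1* (-0.96 to 0.65) reached past it on at least one side, as did *PRKAG3* and *PHKG1* per exon base, so a 1.5-fold difference was within the interval of these genes. For *PYGM*, *PHKA1*, *PRKAG3* and *PHKG1* that held for a higher level in the Tough group alone. The interval of *PRKAA2* lay inside under assigned transcripts (-0.56 to 0.51) and reached past it per exon base (-0.64 to 0.40).

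Markers of the tissue and of other cells were read in the same libraries. The loin showed its fibre genes, with summed fast fibre markers of 26149 to 40155 FPKM in the Tough group and 15288 to 38519 in the Tender group. These sums hold zeros of single markers: *TNNC2* was listed at 0 in 2 Tender libraries and *TNNI2* in 1 Tough and 3 Tender libraries, and per exon base, where neither was at 0 in any library, the sums were 22540 to 33764 and 15420 to 31721 FPKM. Of these 9 markers 8 had a higher mean log2 value in the Tough group, beside 39.7% of all genes. The slow fibre markers summed to 4533 to 9877 FPKM in the Tough and 7217 to 12603 in the Tender group. Of these 8 markers none had a higher mean log2 value in the Tough group, and 2 of them, the myosin light chain *MYL2* (log2 fold change -0.77 ± 0.25, unadjusted p = 0.008765) and *MYOZ2* (-0.86 ± 0.29, unadjusted p = 0.0124), had a limma p under 0.05 but did not pass after adjustment. The summed red blood cell markers did not overlap, at 124.1 to 206.9 FPKM in the Tough and 238.6 to 353.1 in the Tender group. Nearly all of this sum was *HBB*, at 164 ± 31.9 against 294 ± 47.5 FPKM (SD, n = 6 each). For *HBB* the exact permutation p was 0.00216, the smallest that 6 against 6 can give, and the adjusted limma p 0.776. *ALAS2* was also apart, *AHSP* was too low to be tested, and *SLC4A1* was listed at 0 in all 12 libraries. Groups did not overlap in 9 of all 9017 genes tested (0.0998%). The part of fibre types and of blood in the values of the 9 genes was not tested. Of the others, the adipocyte marker *ADIPOQ* was listed at 0 in all libraries under assigned transcripts but was present in all 12 per exon base, at 1.06 to 8.12 FPKM in the Tough and 1.47 to 6.48 in the Tender group. The sums of the adipocyte, macrophage, endothelium and fibroblast markers overlapped between the groups. The mean log2 value was higher in the Tough group for 6 of 6 fibroblast, 0 of 5 endothelium, 1 of 5 macrophage and 2 of 5 adipocyte markers tested, and none of these passed the thresholds. In whole muscle, fewer fibres of a type and less RNA per fibre cannot be told apart.

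The paralogs of each enzyme were read beside the 9 genes, and the shares (FPKM per exon base, over the 12 libraries) were nearly the same in all animals for the enzymes of breakdown. *PYGM* made 99.8 to 99.9% of the phosphorylase FPKM, with the liver gene *PYGL* at 2.21 to 5.42 FPKM and the brain gene *PYGB* listed at 0 in 9 libraries. *PHKA1* made 99.81 to 99.97% against *PHKA2*, the liver alpha subunit, and *PHKG1* 91.4 to 97.9% against *PHKG2*, the liver and testis gamma subunit. The liver synthase *GYS2* was listed at 0 in all 12 libraries. A 0 in these files does not show that a gene was not transcribed, since the muscle creatine kinase gene *CKM* was also listed at 0, in 7 libraries under assigned transcripts and in 4 per exon base.

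The AMPK and phosphatase subunits were more mixed. *PRKAA2* made 91.4 to 94.8% of the AMPK alpha FPKM. *PRKAG3* made a median of 65.0% of the gamma FPKM, with *PRKAG1*, the widely expressed gamma subunit, at a median of 31.1% and *PRKAG2* at 5.93%. The 361 annotated *PRKAG3* bases that were spliced out in all 12 libraries lower its part in these shares. The transcripts of *PRKAG1* and *PRKAG2* were not examined in this way. The share of *PRKAG3* was 58.5 to 73.9% in the Tough animals, whereas the Tender animals split into 3 with 75.5 to 80.1% (Tender 1, 2 and 4) and 3 with 42.7 to 48.4% (Tender 3, 5 and 6), on both sides of every Tough animal. The SD was 18.1 percentage points in the Tender and 5.99 in the Tough group, and the means were 61.9% and 65.0%. Among the glycogen targeting subunits *PPP1R3C* had the largest median share (48.2%), followed by *PPP1R3A*, the subunit bound to glycogen and sarcoplasmic reticulum in muscle (30.0%), and *PPP1R3D* (8.44%).

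**Figure D3:**
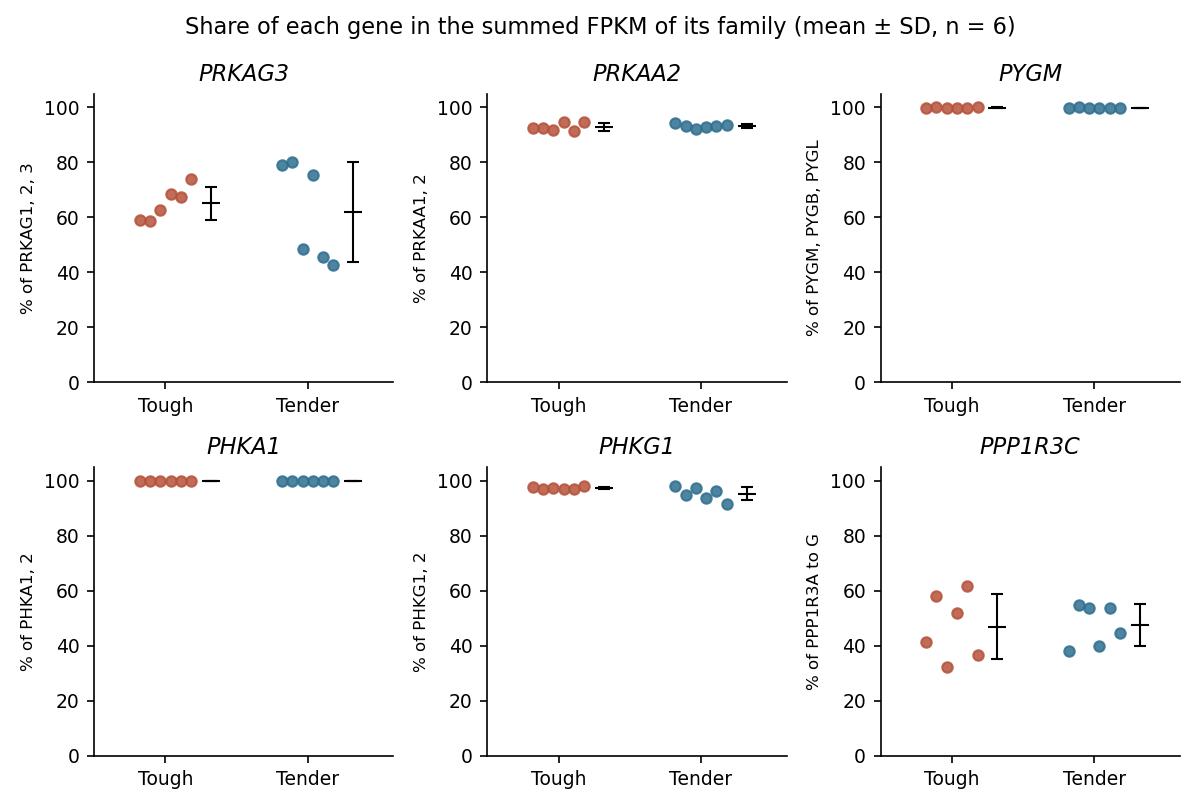
Share of each gene in the summed FPKM (per exon base) of its paralogs, in percent on an axis from 0, for the 6 Tough and 6 Tender libraries with mean and SD. *PYGM*, *PHKA1*, *PHKG1* and *PRKAA2* lie above 91% in every library, whereas *PRKAG3* spreads from 42.7 to 80.1%, with the widest spread among the Tender animals.

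None of the 6 shares passed a test between the groups. With exact two-sided permutation tests adjusted over the 6, the smallest p was that of *PHKG1* (exact p = 0.0693, adjusted p = 0.416). Its share was 97.3% ± 0.418 in the Tough and 95.3% ± 2.41 in the Tender animals (SD, n = 6 each). Tender 6, 4, 2 and 5 lay below every Tough library. The difference ran from 1.21 to 2.51 percentage points over the left-out libraries, with a smallest adjusted exact p of 0.0519, without Tender 1. For *PRKAG3* the difference was 3.14 percentage points (exact p = 0.691, adjusted p = 0.929).

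Most annotated junctions of the 9 genes were found in the assembled transcripts. Every annotated junction of *PYGM* (19), *GYS1* (15), *GBE1* (15), *PHKG1* (9) and *PPP1R3C* (1) was found in all 12 libraries, and 31 of 37 in *PHKA1*, 10 of 13 in *UGP2*, 8 of 10 in *PRKAA2* and 11 of 12 in *PRKAG3*. *PRKAG3* was the exception in another way, as no assembled transcript in any library had exactly its annotated chain of exons, against 11 or 12 libraries for each of the other 8 genes.

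In all 12 libraries the last part of *PRKAG3* was spliced in a way that is not annotated. An intron of 565 bases (chr15:120859282-120859846) began 116 bases past the stop codon, removed the last 361 annotated exon bases and joined the transcript to an exon that starts 205 bases past the annotated end. This intron starts with GT and ends with AG in the sequences printed above, as do 130 of the 131 annotated introns of the 9 genes. The final exon then ran 1037 to 4278 bases past the annotated 3′ end (median 2183.5). The whole coding sequence of 1545 bases lies before the intron, so this splice lies in the untranslated end.

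A second unannotated junction (intron chr15:120859282-120860434) was found in 5 libraries, Tough 3, Tough 4, Tough 5, Tender 5 and Tender 6. It led from the upstream donor printed above straight to the same acceptor and left out the exon with the last 117 coding bases and the stop codon. No protein was measured. The form made 12.3 to 29.7% of the *PRKAG3* FPKM at that point in the 5 libraries and was not assembled in the other 7. Other unannotated junctions lay near the 5′ end. The intron chr15:120865900-120866485 was found in 5 libraries (3 Tough and 2 Tender). It led from an exon upstream of the annotated 5′ end and left out the annotated first exon. The intron chr15:120864867-120865859 was found in 2 libraries (1 Tough and 1 Tender) and left out an internal exon.

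An annotated intron of 132 bases between exons 9 and 10 was kept in 7 libraries. Read in frame on the reference through the 9 annotated exons before it, it meets a stop codon after 30 bases. That is 1110 coding bases from the start with the stop. Not every transcript that kept the intron had all of these exons. Those of Tough 2, Tough 4 and Tough 5 lacked the annotated first exon. That of Tough 3 lacked an internal exon, that of Tender 5 began further on, and in Tender 6 some lacked the first or an internal exon. All 5 transcripts that skip the last coding exon also kept this intron, so the shares of both forms rest in part on the same transcripts. Its share was 12.3 to 27.1% in Tough 2, 3, 4 and 5 and 17.05% in Tender 2. In Tender 5 it was 61.4%, and in Tender 6 all *PRKAG3* transcripts over that stretch kept it (100%). Tender 6 was also the library with the lowest *PRKAG3* level. Among the 12 libraries Tender 6 had the most transcripts without a strand (8350) and the lowest percentage of transcripts assigned to a gene (63.2%). Unspliced RNA or DNA in a library could not be separated from a kept intron with these files, and their part was not tested.

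**Figure D4:**
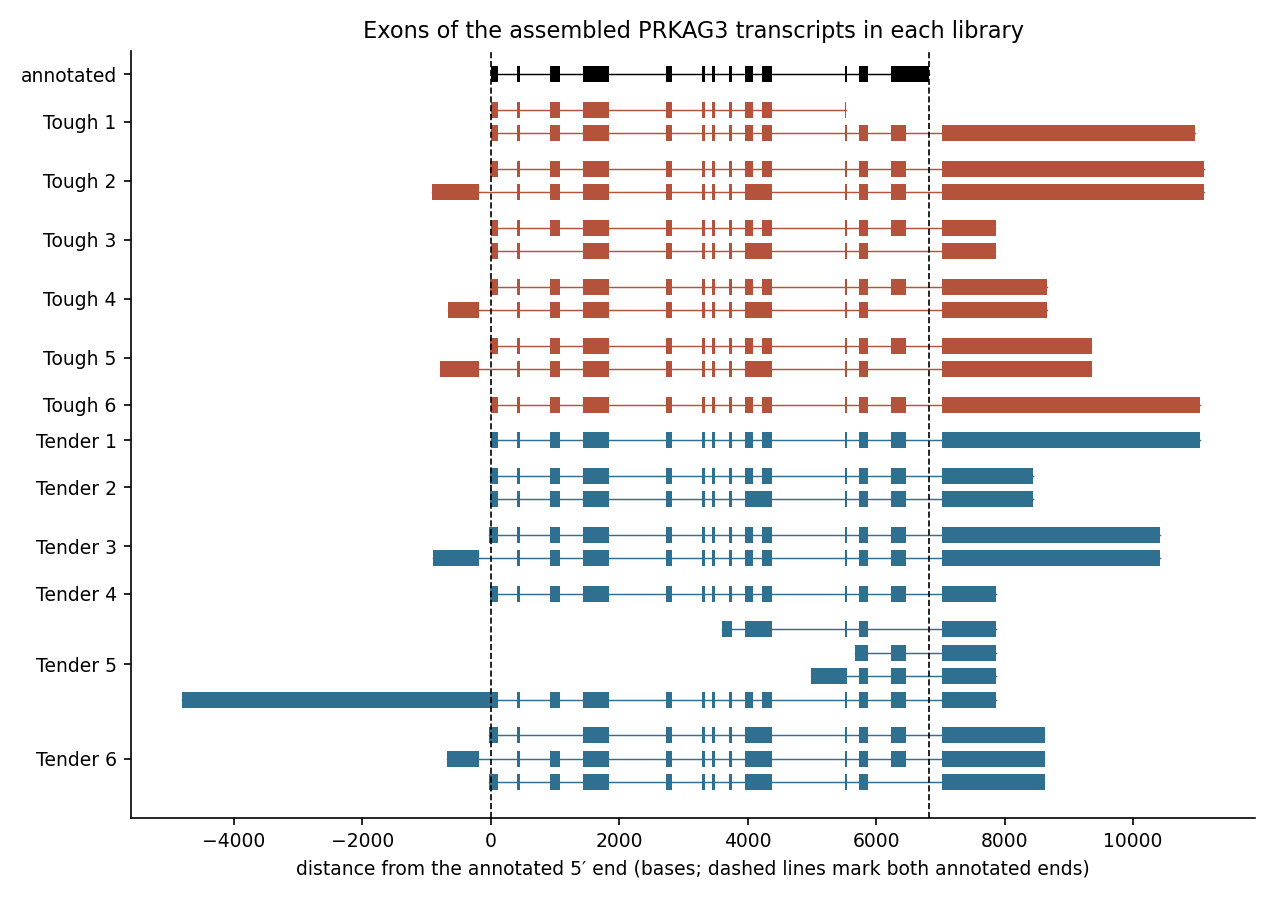
Exons (boxes) and introns (lines) of the annotated *PRKAG3* transcript (black) and of the transcripts assembled in each Tough (red) and Tender (blue) library, against the distance in bases from the annotated 5′ end, the highest FPKM on top. All 12 libraries have a last exon beyond the right dashed line, the annotated 3′ end, and the box before it is missing in some transcripts of 5 libraries. In 1 transcript of Tender 5 the first exon reaches 4801 bases upstream.

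The shares of 4 forms were compared between the groups after their values had been seen, with exact two-sided permutation tests adjusted over the 4, and none passed. Libraries in which a form was not assembled entered at 0%, which does not show that the form was absent. The *PRKAG3* form without the last coding exon made 9.47% ± 11.4 in the Tough animals and 7.80% ± 12.7 in the Tender animals (SD, n = 6 each, exact p = 0.848), and the form that keeps the intron 12.5% ± 10.8 and 29.7% ± 41.8 (exact p = 0.435). The difference of the latter, -17.3 percentage points, was -3.23 without Tender 6. All 4 adjusted p-values lay at 0.716 or above.

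*UGP2* was transcribed from several first exons in every animal. The annotated first exon nearest to exon 2 was used in all 12 libraries and made a median of 55.7% of the *UGP2* FPKM (30.3 to 73.9%). The exon printed above, which starts a coding sequence 33 bases longer than that of the other forms, was also used in all 12 libraries and made 10.7 to 30.2% (median 16.9%), so both the 1527-base and the 1494-base coding sequence were present in each loin. The longer form made 16.8% ± 6.48 in the Tough and 20.3% ± 6.64 in the Tender animals (SD, n = 6 each; exact p = 0.368). The other first exons were found in 5 and 9 libraries, and one annotated first exon in none.

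*PHKA1* used 2 donors 9 bases apart within the coding sequence. The longer form, which holds the capital letters printed above, made 17.5 to 33.8% in 11 libraries and was not assembled in Tough 3. Its share was 17.5 to 21.4% in 9 of these 11, and the others were Tough 1 (33.8%) and Tender 5 (32.2%). The means were 18.3% ± 10.8 in the Tough and 21.5% ± 5.48 in the Tender animals (SD, n = 6 each; exact p = 0.537). A coding exon of 177 bases (chrX:58498363-58498539), which some annotated *PHKA1* transcripts skip, was joined on both sides in all 12 libraries, and the skipping junction was found in none. Muscle is known to make a long alpha subunit, typical of fast fibres, and a shorter one typical of slow fibres and heart that lacks an internal segment. The 51-base exon at chrX:58476576-58476626 was joined in no library. In *PRKAA2* a 225-base exon that an annotated transcript skips was likewise kept in all 12. A form that was not assembled can still have been made, so the absence of the skipping forms is not shown.

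**Figure D5:**
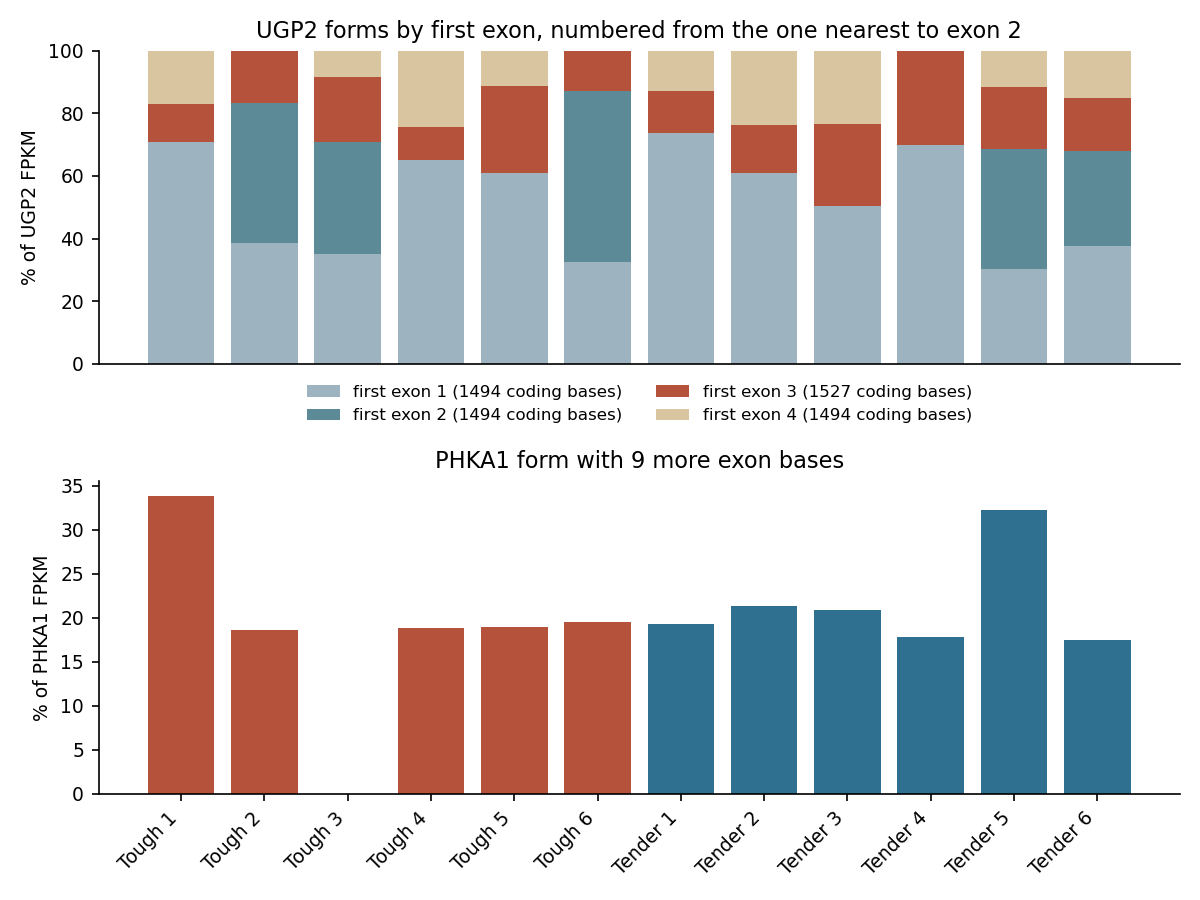
Top, percent of the *UGP2* FPKM by annotated first-exon form in each library, numbered from the form whose first exon ends nearest to exon 2. The third (red) belongs to the longer coding sequence and is present in all 12 libraries. Bottom, percent of the *PHKA1* FPKM in the form with 9 more exon bases, which lies near 20% except in Tough 1, Tender 5 and Tough 3 (0%). Libraries run from Tough 1 to Tender 6 in both panels.

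*PYGM* transcripts that begin inside the first intron, 80 to 277 bases before exon 2, made 38.7 to 77.8% of the *PYGM* FPKM in 4 Tender libraries (1, 2, 3 and 6) and were assembled in no Tough library. They were singled out after their values had been seen and the difference was not tested. Not being assembled does not show that these transcripts were absent, and how often such a split occurs over all genes was not counted.

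Several of the genes lie against genes of the other strand, and the library protocol does not state that strand was kept. All 12 *GYS1* transcripts ran 3271 bases past the annotated 3′ end and covered 726 exon bases of *FTL*, the ferritin light chain gene on the opposite strand, which was itself at 93.5 to 264.9 FPKM per exon base. *PHKG1* shares 109 exon bases with *SUMF2*, *UGP2* shares 1481 with *VPS54* and an uncharacterized gene, *PRKAA2* shares 1423 with *C6H1orf168*, and *GYS1* shares 170 with an uncharacterized gene. Reads of such pairs cannot be told apart here. *PYGM*, *GBE1*, *PHKA1*, *PRKAG3* and *PPP1R3C* share no exon bases with an annotated gene of the opposite strand.

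Wider lists of the pathways were read too. No gene of the 6 lists passed the thresholds. Of the glycogen synthesis list 6 of 9 genes were tested, 2 with a higher and 4 with a lower mean log2 value in the Tough group, and the median log2 fold change was -0.10, beside -0.04 over all 9017 genes. *GYG1*, the primer protein of the chain, was at 86.8 ± 13.5 FPKM in the Tough and 99.1 ± 14.9 in the Tender animals (SD, n = 6 each; exact permutation p = 0.169), *PGM2L1* gave a log2 fold change of 0.34 ± 0.29, and *PGM1*, which interconverts glucose phosphates, gave -1.58 ± 1.42 with 1 Tough library listed at 0 and -0.14 ± 0.29 per exon base, with none at 0.

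In the glycogen breakdown list 11 of 13 genes were tested, 7 higher and 4 lower in the Tough group, with a median of 0.14. Among its genes were *PHKG2* (log2 fold change -0.17 ± 0.15) and *PHKB*, the beta subunit of phosphorylase kinase (0.23 ± 0.24). In the phosphatase targeting list 11 of 13 genes were tested, 7 higher and 4 lower, with a median of 0.06. The catalytic subunit *PPP1CA* gave -0.15 ± 0.12, *PPP1R3D* -0.81 ± 0.67 with 1 Tough library at 0, and *PPP1R3G* -0.24 ± 0.25.

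All 7 AMPK subunit genes were tested, 2 higher and 5 lower in the Tough group, with a median of -0.05. *PRKAG2* was at 1.10 ± 0.384 FPKM in the Tough and 1.59 ± 0.466 in the Tender animals (SD, n = 6 each; exact permutation p = 0.0844). *PRKAG1* gave 1.17 ± 1.02 with 4 libraries listed at 0 and 0.18 ± 0.31 per exon base, with none at 0, and *PRKAB1*, a beta subunit, -0.06 ± 0.13.

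Among the genes upstream and downstream of AMPK 16 of 17 were tested, 7 higher and 9 lower, with a median of -0.03. One of them had an unadjusted limma p under 0.05: *PPARGC1A*, a coactivator of oxidative metabolism and mitochondrial genes, ran from 0.582 over 0.820 to 1.52 FPKM in the Tough group and from 0.794 over 1.69 to 4.20 in the Tender group. Its groups overlapped, and the log2 fold change was -0.70 ± 0.29 (unadjusted p = 0.0331, adjusted p = 1.00). *TBC1D4*, which holds back the glucose carrier, gave 0.42 ± 0.24 and the autophagy kinase *ULK1* 0.16 ± 0.14. In the glucose entry list 9 of 10 genes were tested, 3 higher and 6 lower, with a median of -0.10. The insulin receptor gene *INSR* was at 1.69 ± 0.550 FPKM in the Tough against 3.60 ± 1.99 in the Tender animals (SD, n = 6 each; exact permutation p = 0.0498), with a log2 fold change of -0.77 ± 0.34 that did not pass after adjustment (1.00). The synthase kinases *GSK3A* and *GSK3B* gave -0.22 ± 0.15 and -0.20 ± 0.15.

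Shear force was also compared with the 9 genes within each group. In 18 relations (9 genes in 2 groups of 6 animals, log2 of FPKM + 0.5 against shear force, exact permutation over 720 pairings) none had an adjusted p of at most 0.05. Without further scaling, the smallest p was that of *PRKAG3* in the Tender group under assigned transcripts (Pearson's r = -0.72, exact p = 0.0333, adjusted p = 0.525; Spearman's rho = -0.85, exact p = 0.0667). Per exon base the same relation was r = -0.55 (exact p = 0.243) and, without the 2 animals farthest from the median shear force, -0.29, so it rests on the libraries listed at 0 and on those animals. With the estimated breeding value in place of shear force, 2 of the 18 relations had an exact p of at most 0.05 (smallest 0.0111). With median-of-ratios scaling 2 did (smallest exact p 0.0222). The smallest adjusted p was 0.2 and 0.3.

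The 9 genes were also set against each other over the 12 animals (per exon base, 36 pairs, 100000 permutations, chosen after the values had been seen), and no pair passed an adjusted p of 0.05. The closest was *UGP2* with *PRKAA2* (Pearson's r = 0.80, permutation p = 0.00187, adjusted p = 0.0673; Spearman's rho = 0.81, permutation p = 0.00221). It was 0.92 within the Tough and 0.67 within the Tender group, and 0.74 without the 2 animals farthest from the median of *UGP2*. *PHKA1* with *PRKAA2* followed (r = 0.77, permutation p = 0.00493, adjusted p = 0.0866; rho = 0.68, permutation p = 0.0178), at 0.93 within the Tough, 0.75 within the Tender group and 0.59 without the 2 farthest animals. *PYGM* with *GBE1* was negative (r = -0.73, permutation p = 0.00722, adjusted p = 0.0866; rho = -0.53, permutation p = 0.0784), at -0.47 and -0.88 within the Tough and Tender groups and -0.62 without the 2 farthest. After median-of-ratios scaling this last pair had r = -0.82 with an adjusted permutation p of 0.0403, and it was the only pair of the 36 to pass in that setting. By rank it did not pass there (Spearman's rho = -0.71, adjusted permutation p = 0.210). The points share library, normalization and assembly.

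Among the genes whose level over the 12 libraries was most like that of *PRKAG3* (Pearson's r of log2 of FPKM + 0.5 per exon base, of 7229 genes compared, a description) were *CCDC137* (0.90), *ASB1* (0.87), *OBSL1* (0.82) and *FAM229A* (0.82). The least like were *METTL21C* (-0.78), *ATP5H* (-0.74), *TTC1* (-0.69), *FAM96A* (-0.69) and *PABPC4* (-0.67). None of the other 8 genes was among them.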

How the data were processed

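RNA-seq of the loin was carried out with 1 paired-end library per animal (12 libraries, 6 per group). The authors checked and trimmed the reads (FastQC, Trim Galore), mapped them with TopHat2 2.1.0 to Sscrofa11.1 and assembled transcripts per animal with Cufflinks 2.2.1, per the labels. The deposited files hold, for each transcript and exon, coordinates, a score (a scaled abundance, not used for tests) and the FPKM with its interval and an estimated coverage. They hold no read counts, so the depth in reads is not given here. Each library had 25798 to 31353 transcripts, 63.2 to 73.8% of which were assigned to a gene of NCBI Annotation Release 106 with bedtools 2.31.1.

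Tests across genes, kept to those whose mean exceeded 0.5 FPKM, used limma 3.58.1 (R 4.3.3; trend, log2 of FPKM + 0.5, group as the only term, Benjamini-Hochberg adjustment), and single values were tested by two-sided exact permutation over all 924 splits of 6 against 6 (scipy 1.17.1). Strand had to match; transcripts without a strand were left out and tried as an alternative. The code was tested on simulated data. A seventh Tender animal of the study was not analysed here. The genes, lists and forms were chosen with earlier results of these data known. Named were the 9 genes, their paralogs, up to 3 other genes with the smallest p in each list, the 5 genes most and 5 least like *PRKAG3* among genes with a symbol other than a locus number, a mean of at least 1 FPKM and a value above 0 in every library, and cell markers. For likeness *PRKAG3* was read per exon base. Of the genes this rule names, 2 are not reported here. Alternatives changed the pseudocount (0.1 and 1), the filter, the scaling, the assignment (90% of bases, plain sum, highest transcript, per exon base), the test and the libraries included. Sequences were read from RefSeq's Sscrofa11.1 with samtools 1.23.1.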

Additional observations from a re-analysis of the deposited data

Results flagged for a closer look

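Of 38 groups of 6 animals examined (levels, family shares and forms), 4 held an animal far from the others by Dixon's test at 95%, where chance gives about 1 in 20. They were *GBE1* in Tough 3 (7.76 FPKM per exon base), *PHKG1* in Tough 1 (59.1 FPKM per exon base), *PPP1R3C* in Tough 5 (76.1 FPKM per exon base) and the *PHKA1* form with 9 more exon bases in Tender 5 (32.2%). They came from 4 different animals.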

How the results depend on the processing

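No gene, and none of the 9, passed the thresholds under any setting or left-out library on assigned transcripts. With an unadjusted p of at most 0.05 alone, 223 genes were found (28.7% of them higher in the Tough group, against 48.4% with median-of-ratios scaling and 49.3% with quantile normalization), 171 by the exact Wilcoxon test and 635 with array weights, and leaving out 1 library gave 151 to 399, with 399 without Tender 4, 382 without Tender 1, 377 without Tough 1 and 151 without Tender 5. With the replicate block, which pairs animals of the same number, 0 genes passed and 171 had an unadjusted p of at most 0.05. The numbers do not pair the animals: the correlation of same-numbered animals ran from -0.22 to 0.02 and no number matched itself best. The directions of *PHKA1* (0.17 to 0.39 over the settings and 0.099 to 0.37 over left-out libraries) and of *PHKG1* per exon base (0.32 to 0.47 and, lowest without Tender 6, 0.16 to 0.46) held, and others did not. The rule of 90% of bases gave log2 fold changes of -2.15 for *PYGM*, 0.56 for *GBE1* and -2.08 for *PHKG1*, where libraries fall to 0, and no value for *GYS1*. Array weights gave 0.033 for *GBE1*, 0.030 for *PRKAA2* and -0.080 for *GYS1* per exon base. Median-of-ratios and quantile scaling gave 0.011 and 0.094 for *UGP2* and 0.024 and 0.048 for *PRKAA2*. For *UGP2* the plain sum gave 0.026 and the highest transcript 0.042. The share differences became -0.21 percentage points for *PRKAA2* per exon base and, under the 90% rule, -20.0 for *PYGM*, -0.0011 for *PHKA1* and -34.5 for *PHKG1*. Beyond the construction of each setting, the cause was not tested.

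Leaving out 1 library at a time moved the log2 fold change between -0.013 and 1.76 for *GYS1* (-0.034 to 0.10 per exon base), -0.38 and 0.064 for *GBE1*, -0.88 and 1.33 for *PHKG1*, -0.20 and 0.13 for *UGP2*, -0.10 and 1.41 for *PRKAG3* (-0.027 to 0.33 per exon base), -0.17 and 0.11 for *PRKAA2* and -0.076 and 0.14 for *PPP1R3C*. Under assigned transcripts, with libraries listed at 0, the share differences in percentage points ran from -8.09 to 13.9 for *PRKAG3*, -0.37 to 0.47 for *PRKAA2*, -15.3 to 17.1 for *PHKG1* and -3.59 to 2.03 for *PPP1R3C*. Per exon base, chosen after seeing the data, they ran from -0.69 to 6.78 for *PRKAG3*, -0.57 to 0.11 for *PRKAA2*, 1.21 to 2.51 for *PHKG1*, -3.43 to 2.43 for *PPP1R3C*, -0.0084 to 0.027 for *PYGM* and 0.020 to 0.049 for *PHKA1*. The exact test called 0 to 1 of the 9 genes, the 1 being *PYGM* without Tender 2. The share differences of the *PHKA1* form with 9 more bases and the *PRKAG3* form without the last coding exon ran from -6.35 to 0.42 and from -1.85 to 6.05, and that of the *PRKAG3* form that keeps the intron from -23.2 to -3.23. Including transcripts without a strand called no gene, and was chosen after seeing the data.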
